A study of Mus musculus with 20 samples.

Results

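The comparison described here was between microglia sorted 1 week after a full transection (FT) of the spinal cord and microglia sorted 1 week after a lateral hemisection (HS), across every gene of the deposited table. The samples were chosen by their labels alone, 3 FT and 2 HS samples, 5 of the 20 samples of the series. All groups of the series were CX3CR1+/eGFP mice, in which enhanced green fluorescent protein (eGFP) replaces 1 allele of the fractalkine receptor gene *Cx3cr1*, so injured and control mice alike kept a single functional copy. Per the study's methods the mice were adult heterozygotes, males were taken for sorting, and the lesion was made at the ninth thoracic level. The tissue was a 1 cm segment centred on the lesion, or the matching thoracic segment of the 3 non-injured (NI) samples that serve as background. It was digested with enzymes before cells with high eGFP were sorted. Because *Cx3cr1* also drives eGFP in monocytes and macrophages, the sort by itself does not separate them from microglia. The methods call the samples biological replicates and count more mice than samples, and neither they nor the labels say which mice went into each, so the p-values measure the spread between these samples. The remaining samples were taken 72 h or 2 weeks after either injury, with 3 in each of those groups.

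A full transection severs all ascending and descending tracts, whereas a lateral hemisection spares those of the opposite side. Microglia are the resident macrophages of the spinal cord: they take up myelin debris after an injury, export its cholesterol on apolipoproteins, and release cytokines. Immediate-early genes encode transcription factors and feedback regulators whose transcripts appear within minutes of a stimulus without new protein synthesis, and heat-shock genes encode chaperones that are induced by misfolded protein.

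Values are the authors' normalized counts, in reads per mega-read of library after normalization (CPM). The HS samples held 6.91 and 7.49 mega-reads on the listed genes and the FT samples 11.8, 13.6 and 14.2, so that 3 reads, the upper limit that a count of 0 allows, were worth 0.222 to 0.408 CPM. FT replicate 1 stood apart. The root mean square distance between samples on the log2 scale was 0.756 and 0.768 from FT replicate 1 to the other two FT samples, 0.425 between those, 0.492 between the HS samples and 0.469 to 0.648 between FT and HS samples. The label was checked with 10 microglial marker genes, all of them detected in the 5 samples. *P2ry12*, a purinergic receptor of microglia, had 2346 and 1861 CPM after HS and 1182, 3668 and 3843 CPM after FT. *Tmem119*, like *P2ry12* chosen after its values were seen, had 632 and 648 CPM after HS and 855, 559 and 671 CPM after FT. The groups overlapped in all 10 markers, 0 of the 10 reached an unadjusted p under 0.05, and their median difference was 0.15 on the log2 scale, with summed levels of 29110.4 and 23928 CPM after HS and 18503, 38940.3 and 32438 CPM after FT. In bulk RNA, fewer cells of a type and less RNA per cell cannot be told apart. Without FT replicate 1, 4 of the 10 markers were higher at an unadjusted limma p under 0.05 with a median of 0.47. In that fit the higher genes over the whole table numbered 1167 in place of 289. The median was near 0 without FT replicate 2 or 3 and -0.050 with quantile normalization (4 higher and 6 lower), so the direction of the list depended on these choices.

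Across all 16810 genes of the table, limma called 0 genes between FT and HS (0%) at a Benjamini-Hochberg adjusted p under 0.05 and a difference of at least 2-fold. The smallest adjusted p was 0.081, for *Gpx3*. At an unadjusted p under 0.05 there were 289 genes higher after FT (1.72%) and 435 lower (2.59%), 724 in all, of which 60.1% were lower. That split depended on the scaling. It was 88.7% lower (752 of 848) with every column scaled to 1 total, which moved the median of all genes from -0.012 to -0.13, and 48.8% lower (409 of 838) with quantile normalization. The counts also depended on the spread, which the main fit estimated from all 20 samples. With only the compared groups in the fit, 377 genes had an unadjusted limma p under 0.05. Of these 103 were higher and 274 lower (72.7%), and the smallest limma adjusted p was 0.400. Every FT sample lay above every HS sample for 1141 genes (6.79%) and below for 1386 (8.25%). These percentages are the background for every group of genes below. The fitted difference was 2-fold or more upward for 34 genes and downward for 168. On the other side, the 95% interval of the difference lay within 2-fold in both directions for 11268 genes (67.0%), and for 7268 of the 8333 genes with a mean of at least 10 CPM in either group (87.2%). For the other 33.0% the interval reached beyond 2-fold. On whole reads recovered from the table, edgeR's likelihood ratio test called 8 genes (0.0476%), 5 higher and 3 lower, DESeq2 called 7, and edgeR's quasi-likelihood test called 0, with 733 genes at an unadjusted p under 0.05.

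**Figure D1:**
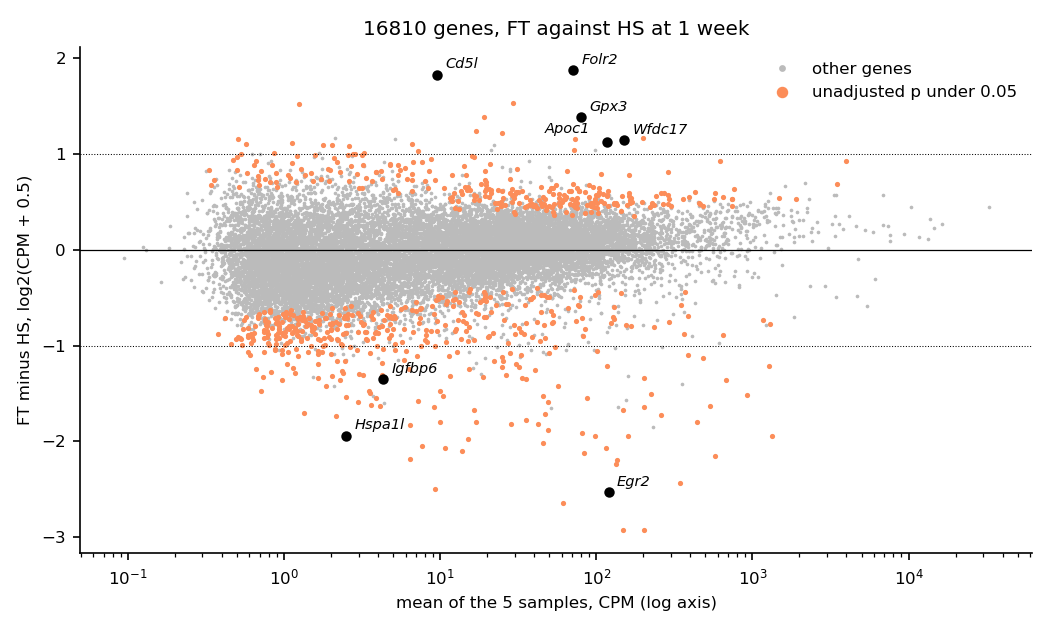
Difference between FT and HS at 1 week, as log2(CPM + 0.5), against the mean level of the 5 samples in CPM on a log axis, for all 16810 genes. Points in orange are the 724 genes with an unadjusted p under 0.05, dotted lines mark a 2-fold difference, and the 8 labelled genes are those called by edgeR's likelihood ratio test.

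The 8 genes called by the likelihood ratio test are also the genes that the study lists for this comparison. The study chose them for this same comparison, so their direction is not independent evidence. The methods state 3 replicates for every time point, whereas 2 HS samples at 1 week were analysed here. Of the 5 higher genes, *Gpx3* encodes a secreted, selenium-containing glutathione peroxidase (GRCm38 chromosome 11, 54902453 to 54910377, plus strand). It had 40.6 and 38.4 CPM after HS and 83.1, 108 and 126 CPM after FT, against 5.06, 4.12 and 3.07 CPM in NI. All FT samples were above both HS samples, which were themselves well above NI, and the log2 difference was 1.39 (95% interval 0.91 to 1.86). *Folr2* encodes folate receptor beta, a marker of macrophages at the borders of the central nervous system (chromosome 7, 101839988 to 101857194, minus strand). It had 25.7 and 27.3 CPM after HS and 113, 77.1 and 110.3 CPM after FT, against 3.87, 8.62 and 6.91 CPM in NI. The HS samples were nearly equal and the lowest FT sample was FT replicate 2, and the log2 difference was 1.88 (95% interval 1.14 to 2.62, limma adjusted p = 0.268).

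*Cd5l* encodes a secreted scavenger receptor protein of macrophages, a known target of the liver X receptors, LXR (chromosome 3, 87357881 to 87371073, plus strand). It had 4.08 and 2.89 CPM after HS and 14.1, 11.5 and 15.1 CPM after FT, from 30 and 24 reads and from 190, 149 and 192 reads. The log2 difference was 1.83 (95% interval 1.05 to 2.61), and NI samples were lower still, at 1.07, 0.257 and 0.384 CPM. *Apoc1* encodes apolipoprotein C1, carried on lipoproteins (chromosome 7, 19689481 to 19692660, minus strand). It had 61.3 and 72.4 CPM after HS and 165, 105 and 179 CPM after FT, against 2.26, 2.45 and 2.21 CPM in NI. *Wfdc17* encodes a small secreted protein with a whey acidic protein domain (chromosome 11, 83703991 to 83706268, plus strand). It had 81.7 and 91.4 CPM after HS and 206, 153 and 225 CPM after FT, against 23.5, 20.7 and 27.6 CPM in NI. *Apoc1* and *Wfdc17* shared their order of samples: FT replicates 1 and 3 were the highest, FT replicate 2 was between, and both HS samples were below. Their log2 differences were 1.13 (95% interval 0.65 to 1.61) and 1.15 (95% interval 0.65 to 1.65), with limma adjusted p = 0.286 for each, as for *Cd5l*.

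The 3 lower genes differed in how they stood to NI. *Igfbp6* encodes a binding protein of insulin-like growth factors (chromosome 15, 102144362 to 102149511, plus strand). It had 6.54 and 7.58 CPM after HS and 2.37, 2.40 and 2.60 CPM after FT, against 2.09, 1.16 and 1.15 CPM in NI, so that FT samples lay between NI and HS. The log2 difference was -1.35 (95% interval -1.95 to -0.76, limma adjusted p = 0.286). *Hspa1l* encodes a member of the 70-kilodalton heat-shock family (chromosome 17, 34972703 to 34979285, plus strand). It had 5.31 and 4.33 CPM after HS and 1.26, 0.387 and 1.18 CPM after FT, from 39 and 36 reads and from 17, 5 and 15 reads. *Hspa1l* in HS was near its NI level (3.93, 4.76 and 3.36 CPM) and in FT below it, with a log2 difference of -1.94 (95% interval -2.80 to -1.08, limma adjusted p = 0.286). *Egr2* encodes a zinc-finger transcription factor of the immediate-early class (chromosome 10, 67535475 to 67542188, plus strand). It had 241 and 226 CPM after HS and 73.1, 30.6 and 28.3 CPM after FT, against 107, 233 and 218 CPM in NI. FT replicate 1 stood between the other FT samples and HS, and the log2 difference was -2.53 (95% interval -3.78 to -1.28, limma adjusted p = 0.671).

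**Figure D2:**
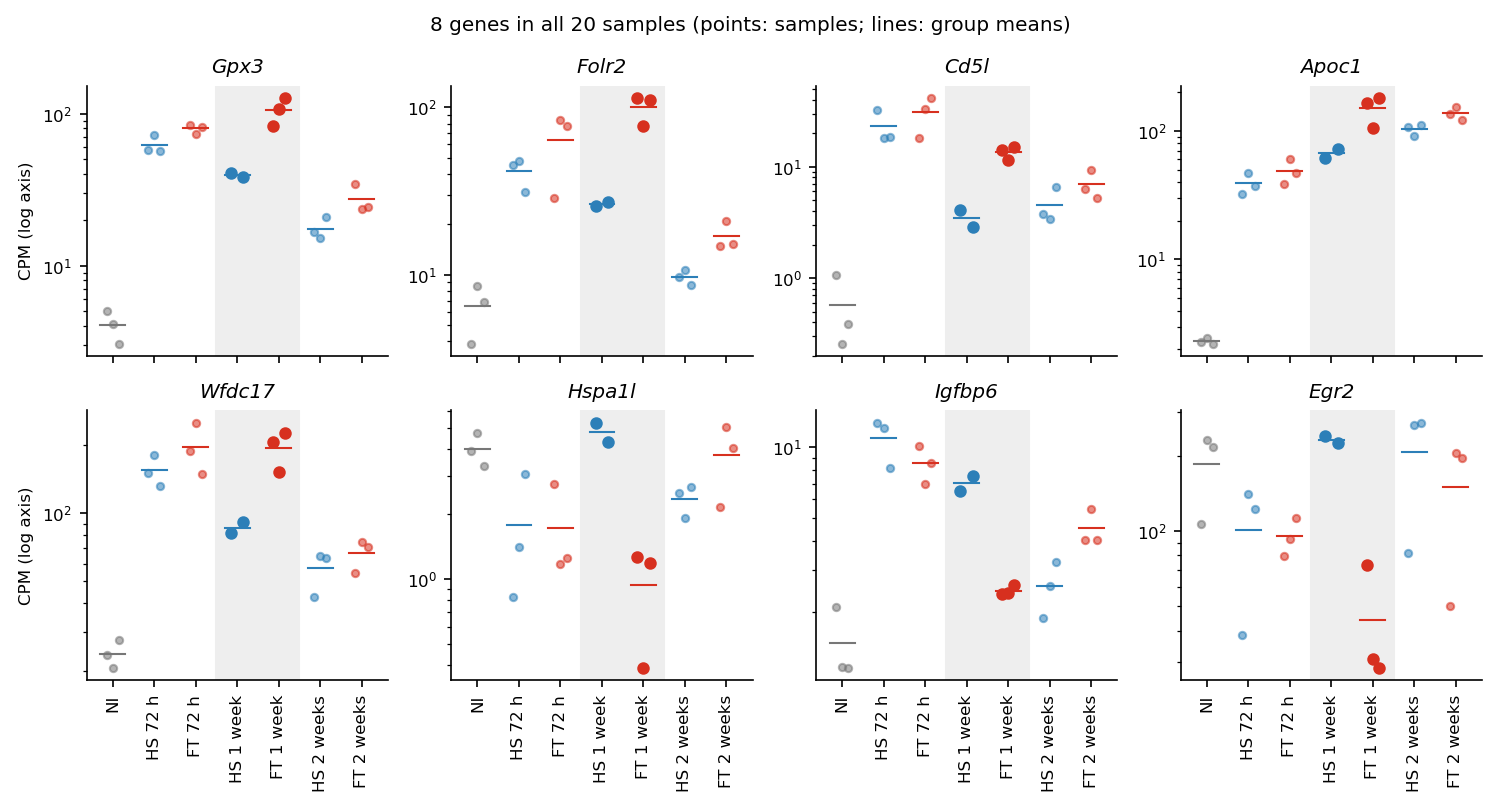
CPM on a log axis of the 8 genes in all 20 samples, by group (grey, NI; blue, HS; red, FT; lines, group means), with the groups at 1 week shaded. At 1 week the FT samples lie above the HS samples for 5 genes and below them for 3.

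At the other times the same contrast was smaller for each of the 8 genes. FT minus HS of the 5 higher genes was 0.31 to 0.48 on the log2 scale at 72 h and 0.24 to 0.77 at 2 weeks, and all 10 values were above 0. *Gpx3* averaged 62.2 ± 9.07 CPM in HS and 80.0 ± 5.45 CPM in FT at 72 h, and 17.5 ± 2.90 and 27.4 ± 5.96 CPM at 2 weeks (SD, n = 3 in each group). *Folr2* averaged 41.5 ± 8.83 CPM in HS and 63.5 ± 30.2 CPM in FT at 72 h, and 9.68 ± 0.997 and 17.0 ± 3.34 CPM at 2 weeks. For both genes the FT mean at 1 week was the highest of the 7 group means, whereas the HS mean was lower at each later time. *Igfbp6* had values on both sides of 0, since FT minus HS was -0.34 at 72 h and 0.72 at 2 weeks. *Egr2* averaged 101 ± 54.8 CPM in HS and 95.5 ± 16.7 CPM in FT at 72 h, and 207 ± 109 and 151 ± 87.2 CPM at 2 weeks, where the groups overlapped at both times.

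The change of the severity contrast over time was tested directly. Against 72 h, limma called 0 genes (661 at an unadjusted p under 0.05, smallest adjusted p = 0.996), and against 2 weeks it called 0 genes (352 at an unadjusted p under 0.05, smallest adjusted p = 0.382). *Igfbp6* had the smallest of these adjusted p-values, with a contrast at 1 week minus that at 2 weeks of -2.07 on the log2 scale (standard error 0.38). On whole reads *Igfbp6* was called by edgeR's likelihood ratio test (-2.31, adjusted p = 0.0110) and by DESeq2 (-2.32, adjusted p = 0.0236), and no gene was called by edgeR's quasi-likelihood test or against 72 h. All 8 genes had an unadjusted limma p under 0.05 against each of the other times, but they had been chosen for their contrast at 1 week.

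**Figure D3:**
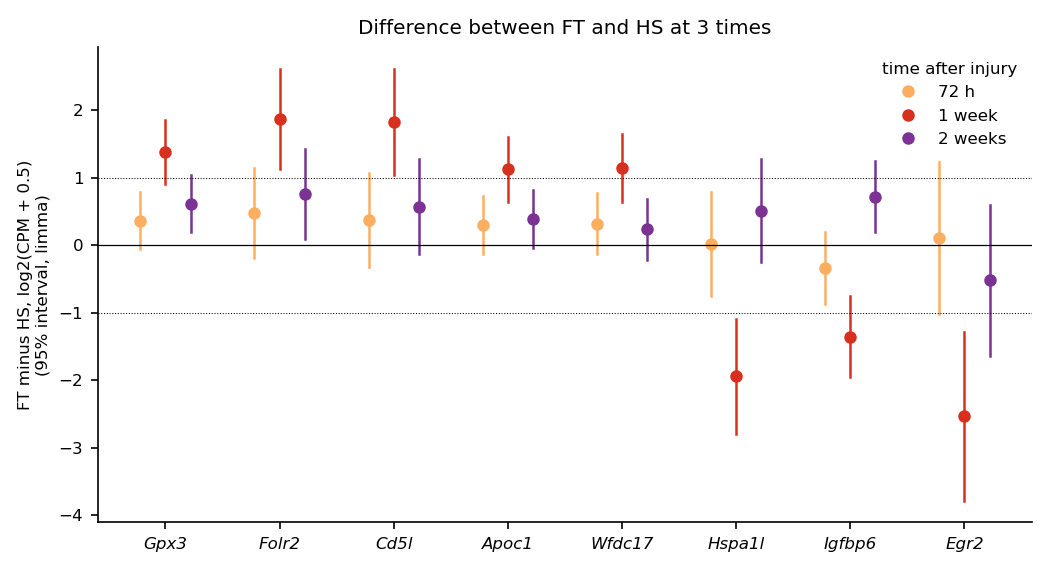
FT minus HS of the 8 genes at 72 h, 1 week and 2 weeks, as log2(CPM + 0.5) with 95% intervals from limma, and dotted lines at a 2-fold difference. Intervals at 1 week exclude 0 for all 8 genes, and at 72 h for none, while at 2 weeks the intervals of *Gpx3*, *Folr2* and *Igfbp6* lie above 0.

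The immediate-early genes, of which *Egr2* is one, had lower fitted values after FT in all 24 members, 14 of the 24 (58.3%, against 2.59% of all genes) at an unadjusted p under 0.05, and in 13 of the 24 (54.2%, against 8.25%) every FT sample lay below every HS sample. The median log2 difference was -1.47, where that of all genes was -0.012, and 0 members passed the adjusted threshold. A promoter stretch is shown for *Egr2* because serum response factor, a regulator of many immediate-early genes, binds the CArG box, which is in capitals here. It is the RefSeq sequence of the 150 bases before the start listed at 67537566 (GRCm38, chr10:67537416-67537565, plus strand), and the box spans bases -72 to -63 from the start:
Egr2: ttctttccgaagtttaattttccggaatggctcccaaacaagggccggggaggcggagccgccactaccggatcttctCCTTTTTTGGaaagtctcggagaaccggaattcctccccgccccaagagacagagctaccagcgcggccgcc
On either strand the CArG box was found in 1.63% of the 32851 promoter windows (250 bases before to 50 after each start) and in 1.81% of the 27025 genes they belong to. It was found in 4 of 5 windows of *Egr2*, and in 2 of the 20 immediate-early genes with a window, *Egr2* and *Zfp36*. The cyclic AMP response element TGACGTCA, which reads the same on both strands, was found in 2.03% of all genes with a window and in 3 of these 20. A match is a description of the letters and says nothing of binding in these cells.

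Among the transcription factors, *Fos*, a subunit of the AP-1 complex, had 2119 and 2332 CPM after HS and 1445, 419.7 and 314 CPM after FT, against 1604, 2879 and 2806 CPM in NI. HS was within the NI range and all FT samples were below it, FT replicates 2 and 3 most (log2 difference -1.95, 95% interval -3.66 to -0.23). *Atf3*, a stress-induced factor of the same superfamily, had 768 and 486 CPM after HS and 314, 103 and 43.8 CPM after FT (-2.44, 95% interval -3.93 to -0.94). *Egr3* was near the detection limit, with 2.45 and 0.601 CPM after HS and 0.445, 0.0774 and 0 CPM after FT. *Zfp36*, which encodes an RNA-binding protein that shortens the life of cytokine transcripts, had 2037 and 1818 CPM after HS and 857, 888 and 751 CPM after FT (-1.21, 95% interval -2.29 to -0.13). In *Zfp36* the 3 FT samples were close together, below the NI range of 1234 to 1827 CPM. The following members were chosen after their values were seen. *Nr4a1*, an orphan nuclear receptor, had the lowest fitted difference (-2.93, 95% interval -5.01 to -0.85), with 316 and 241 CPM after HS and 148, 21.7 and 14.0 CPM after FT. *Fosb* was next (-2.92), but its groups overlapped, at 369.9 and 273 CPM after HS and 343, 21.1 and 9.46 CPM after FT. *Jund* was highest in FT replicate 1 (53.8 and 46.0 CPM after HS and 102, 17.1 and 17.7 CPM after FT).

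The FT samples differed among themselves in this group. Against the mean of HS, the median member was -1.77 in FT replicate 2 and -2.24 in FT replicate 3 on the log2 scale, but -0.23 in FT replicate 1, which was the highest of the 5 samples in 7 of the 24 genes. FT replicate 3 was the lowest in 20 of the 24. Summed over the group, the level was 11332 and 11043 CPM after HS and 7736, 3008 and 2469.8 CPM after FT, against 8093 to 13209 CPM in NI. Without FT replicate 1, 22 of the 24 members were lower at an unadjusted limma p under 0.05, where the lower genes over the whole table numbered 1102 in place of 435. Without FT replicate 2 or 3 there were 7 and 5 such members, where the lower genes over the whole table numbered 344 and 275. Without HS replicate 1 or 2 the median of the group was -1.44 and -1.54. All 24 were lower in the fit each time. On whole reads, 8 members passed by edgeR's quasi-likelihood test, 12 by its likelihood ratio test and 7 by DESeq2. By these tests the lower genes over the whole table numbered 389, 426 and 310. Within other groups the summed level also varied, from 2025 to 12511 CPM in the 3 FT samples and from 3387 to 16079 CPM in the 3 HS samples at 2 weeks. FT minus HS had a median of 0.050 at 72 h (15 members higher and 9 lower) and -0.30 at 2 weeks (6 higher and 18 lower), with 0 of 24 at an unadjusted p under 0.05 in either direction at both times, where 1.3% and 1.25% of all genes were lower at that threshold. Tested as a difference between times, 7 members had a lower contrast at 1 week than at 72 h at an unadjusted p under 0.05 (2.39% of all genes) and 5 than at 2 weeks (1.43%), and none was called after adjustment. Both counts include *Egr2*, which had been chosen for its contrast at 1 week.

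Of 17 heat-shock genes 16 had a lower fitted value after FT and 8 (47.1%, against 2.59%) had an unadjusted p under 0.05, all 8 in the lower direction, with a median log2 difference of -1.08. Every FT sample lay below every HS sample in 9 of the 17 (52.9%, against 8.25%), and 0 passed the adjusted threshold. *Hspa1a* and *Hspa1l*, neighbours that start 547 bases apart on opposite strands of chromosome 17, are shown because heat-shock factor 1 binds inverted repeats of its half-site, GAANNTTC, in capitals. The RefSeq stretches are the 150 bases before the starts at 34972156 (minus strand, chr17:34972157-34972306) and 34972703 (plus strand, chr17:34972553-34972702) of GRCm38:
Hspa1a: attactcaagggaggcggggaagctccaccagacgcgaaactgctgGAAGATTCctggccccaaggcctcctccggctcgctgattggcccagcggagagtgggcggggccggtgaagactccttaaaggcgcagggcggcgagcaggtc
Hspa1l: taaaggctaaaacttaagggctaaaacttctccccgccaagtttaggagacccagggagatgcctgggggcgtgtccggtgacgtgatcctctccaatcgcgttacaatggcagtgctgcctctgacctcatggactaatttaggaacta
The stretch of *Hspa1a* holds the repeat once, at bases -104 to -97 from its start, and that of *Hspa1l* does not hold it. GAANNTTC reads the same on both strands and was found in 9.04% of all genes with a window and in 8 of the 13 heat-shock genes with a window. The windows of *Hspa1a* and *Hspa1b* are the same at 296 of 300 positions. The transcripts of these genes are near copies too, so reads may have been split among them or lost in counting.

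*Dnajb1*, a co-chaperone of the 70-kilodalton family, had 261 and 227 CPM after HS and 98.2, 57.2 and 23.9 CPM after FT, against 269, 351 and 203 CPM in NI. Every FT sample was below HS and NI, with a log2 difference of -2.23 (95% interval -3.51 to -0.96). *Bag3*, a partner of the same chaperones in protein degradation, had 52.4 and 40.8 CPM after HS and 23.2, 21.2 and 16.3 CPM after FT (-1.19, 95% interval -1.92 to -0.45), with NI at 46.1, 49.5 and 45.9 CPM. HS was again near NI. The most abundant members had smaller differences. *Hspa8*, the constitutive chaperone, had 4268 and 3725 CPM after HS and 1551, 3838 and 3799.5 CPM after FT, where FT replicate 1 alone was low (-0.50, 95% interval -1.26 to 0.27). *Hsp90ab1*, the constitutive 90-kilodalton chaperone, had 1613 and 1657 CPM after HS and 1243, 1533 and 1635 CPM after FT (-0.16, 95% interval -0.66 to 0.33). The next 2 genes were chosen after their values were seen. *Hspa1a* had 113 and 135 CPM after HS and 123, 16.0 and 17.1 CPM after FT, so FT replicate 1 was with HS and the other two FT samples were far below. *Cryab*, a small heat-shock protein also abundant in oligodendrocytes, was the one member with a higher fitted value (0.85), at 18.9 and 17.0 CPM after HS and 46.9, 20.7 and 35.7 CPM after FT.

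Against the mean of HS, the median heat-shock gene was at -0.71 in FT replicate 1, -1.11 in FT replicate 2 and -1.28 in FT replicate 3. That order was the same as for immediate-early genes, whereas the counts of lowest members and the summed level ordered the FT samples differently. FT replicate 1 was the lowest of the 5 samples in 6 members, FT replicate 2 in 7 and FT replicate 3 in 3, and the summed level was 9708 and 9164 CPM after HS and 4764, 7474 and 7836 CPM after FT, against 9941 to 10371 CPM in NI. With FT replicate 1, 2 or 3 left out, 9, 6 and 7 members were lower at an unadjusted limma p under 0.05. In these fits the lower genes over the whole table numbered 1102, 344 and 275, in place of 435. With HS replicate 1 or 2 left out the median of the group was -1.01 and -1.05. At 72 h the median of FT minus HS was 0.020 and at 2 weeks -0.11, with 0 of 17 members at an unadjusted p under 0.05 in either direction. The contrast at 1 week was lower than that at 72 h in 5 members (2.39% of all genes) and lower than that at 2 weeks in 2 (1.43%) at an unadjusted p under 0.05. Both counts include *Hspa1l*, which had been chosen for its contrast at 1 week.

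**Figure D4:**
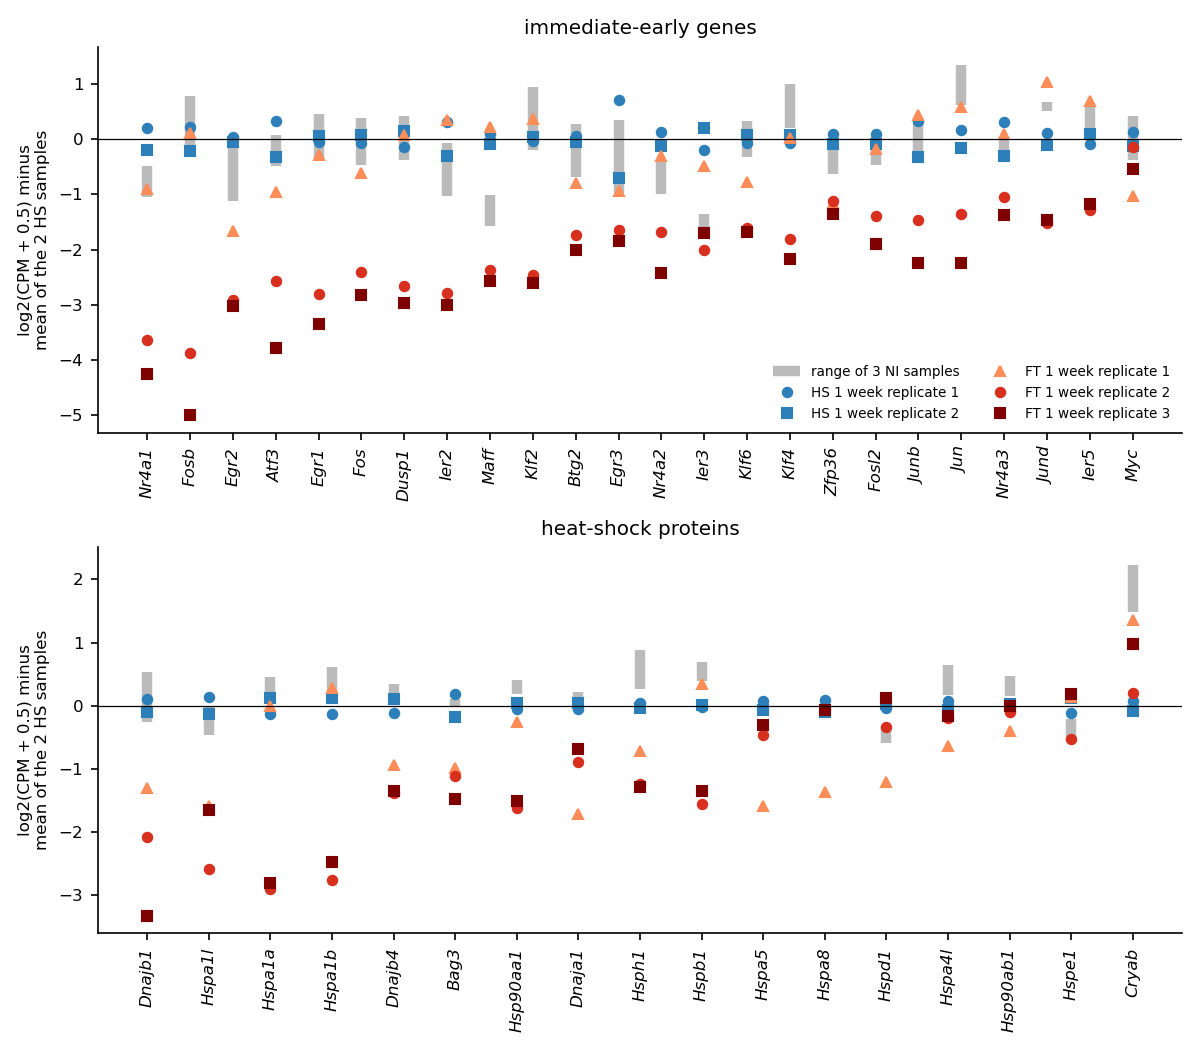
Each of the 24 immediate-early and 17 heat-shock genes in the 5 samples at 1 week, as log2(CPM + 0.5) minus the mean of the HS samples (blue, HS; orange to dark red, FT; grey bars, range of the 3 NI samples). FT replicates 2 and 3 lie far below 0 in most immediate-early genes, and FT replicate 1 lies near 0 in many of them.

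Cytokine genes were split in direction. Of 28 cytokines and chemokines, 7 (25.0%, against 2.59%) were lower and 2 (7.14%, against 1.72%) higher at an unadjusted p under 0.05, 0 passed after adjustment, and the median log2 difference was -0.25. *Ccl22*, a chemokine that attracts regulatory T cells, had 3.27 and 3.25 CPM after HS and 1.04, 0.619 and 1.10 CPM after FT, against 0.358, 0.515 and 0.863 CPM in NI. The FT samples were close to NI, and the log2 difference was -1.42 (95% interval -2.14 to -0.70). *Il1a*, the alarmin interleukin 1 alpha, had 256 and 248 CPM after HS and 94.8, 75.4 and 68.5 CPM after FT, against 145, 191 and 187 CPM in NI (-1.67, 95% interval -2.74 to -0.60). Here the FT samples were below the range of NI. The other lower members, chosen after their values were seen, included *Tnf* (-2.07), *Il1b* (-1.95), *Il10* (-1.27) and *Cxcl2* (-2.19). *Il1b* had 250.1 and 300.1 CPM after HS and 156, 42.5 and 53.4 CPM after FT, with FT replicate 1 nearest to HS as in *Fos*. In the opposite direction, *Cxcl9*, an interferon-gamma-induced chemokine, had 4.63 and 3.73 CPM after HS and 6.97, 8.74 and 12.1 CPM after FT (1.03, 95% interval 0.40 to 1.67). *Ccl3* and *Ccl4*, the most abundant members, overlapped between the groups, at 2037 and 2691 CPM after HS and 2212, 1068 and 1272 CPM after FT for *Ccl4* and log2 differences of -0.36 (95% interval -1.32 to 0.59) and -0.70 (95% interval -1.79 to 0.40). Summed over the group, the level was 5828 and 7169.7 CPM after HS and 5709.9, 3641 and 4626 CPM after FT, against 2602 to 3990 CPM in NI. At the other times the lower side was empty: 0 members were lower and 3 (1.71% of all genes) higher at 72 h, and 0 lower and 4 (1.36%) higher at 2 weeks, at an unadjusted p under 0.05. The contrast at 1 week was lower than at 72 h in 4 members (2.39% of all genes) and lower than at 2 weeks in 5 (1.43%) at that threshold. The 7 lower members at 1 week became 3 without FT replicate 2 or FT replicate 3, and 9 without FT replicate 1. In these fits the lower genes over the whole table numbered 344, 275 and 1102, in place of 435. The median of the group was -0.23 without HS replicate 1 and -0.18 without HS replicate 2.

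LXR targets and apolipoproteins serve the export of cholesterol onto lipoproteins. Of 18 members 15 had a higher fitted value after FT and 7 (38.9%, against 1.72%) had an unadjusted p under 0.05, all in that direction, with a median log2 difference of 0.27. In 6 of the 18 (33.3%, against 6.79%) every FT sample lay above every HS sample. Of the 7, *Apoc1* and *Cd5l* are among the study's 8 genes, so the count is in part the same observation. *Apoc4* and *Apoc2* lie in the same gene cluster as *Apoc1*. *Apoc4* had 8.17 and 9.86 CPM after HS and 26.2, 16.6 and 24.1 CPM after FT, against 0.238, 0.257 and 0.576 CPM in NI (1.24, 95% interval 0.57 to 1.91). *Apoc2*, chosen after its values were seen, had 40.6 and 46.0 CPM after HS and 106, 66.2 and 103 CPM after FT (1.05, 95% interval 0.44 to 1.66). In both, as in *Apoc1*, FT replicate 2 was the lowest FT sample. *Apoe*, the main apolipoprotein of these cells, varied more within groups than between them, with 15505 and 3142 CPM after HS and 11411, 17034 and 4468 CPM after FT (0.45, 95% interval -1.36 to 2.26). The cholesterol exporters *Abca1* and *Abcg1*, also chosen after their values were seen, had log2 differences of 0.46 (95% interval 0.028 to 0.89) and 0.53 (95% interval 0.055 to 1.01). Of 15 genes of lipid uptake and storage, 2 (13.3%, against 1.72%) were higher and 1 (6.67%, against 2.59%) lower at an unadjusted p under 0.05. Without overlap 1 lay above (6.67%, against 6.79%) and 1 below (6.67%, against 8.25%). The median was 0.17, and 4 had a lower fitted value. *Fabp5*, a fatty acid-binding protein, was among the higher, with 57.3 and 71.3 CPM after HS and 132, 71.8 and 114 CPM after FT. The lysosomal lipase gene *Lipa* had 0.53, with overlapping groups. At 72 h 1 of the 18 LXR targets and apolipoproteins was higher at an unadjusted p under 0.05 and at 2 weeks 0 were, but 14 had a higher fitted value at 72 h (median 0.14) and 13 at 2 weeks (median 0.15). The contrast at 1 week was higher than at 72 h in 2 members (1.54% of all genes) and higher than at 2 weeks in 2 (0.666%). Against both times these were *Apoc1* and *Cd5l*, which had been chosen for their contrast at 1 week, and no other member was counted. The higher members at 1 week numbered 7, 5 and 5 without FT replicate 1, 2 or 3. In these fits the higher genes over the whole table numbered 1167, 501 and 221, in place of 289. The median of the group was 0.37 without HS replicate 1 and 0.18 without HS replicate 2.

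*Folr2* was also examined with the markers of border-associated macrophages, cells that the eGFP gate could hold. Of 14 listed markers, 3 (21.4%, against 1.72%) were higher and 1 (7.14%, against 2.59%) lower at an unadjusted p under 0.05, 5 were above without overlap (35.7%, against 6.79%) and 3 below (21.4%, against 8.25%), and the median log2 difference was 0.14. *Folr2* is itself a member, among the 3 higher and the 5 above. It was chosen for this contrast, so these counts are in part the same observation. The other higher markers were *Ms4a7* and *Stab1*. *Ms4a7*, a membrane protein of such macrophages, had 38.1 and 43.7 CPM after HS and 93.3, 69.2 and 119 CPM after FT, against 17.3, 15.4 and 18.6 CPM in NI (1.16, 95% interval 0.38 to 1.94). *Stab1*, a scavenger receptor, had 481 and 402 CPM after HS and 589, 762 and 657 CPM after FT (0.60, 95% interval 0.093 to 1.10). *Cd209b*, a lectin, was at or near the limit of detection (1.36 and 1.08 CPM after HS and 0.667, 0.155 and 0.473 CPM after FT). The summed level of the 14 markers, *Folr2* included, was 686 and 606 CPM after HS and 927, 1058 and 1063 CPM after FT, against 706 to 746 CPM in NI. FT minus HS of these markers had a median of 0.15 at 72 h (11 higher and 3 lower) and -0.010 at 2 weeks (6 higher and 8 lower). At an unadjusted p under 0.05, 2 were higher at each of these times (1.71% and 1.36% of all genes) and 0 lower. *Folr2* was among those at 2 weeks only. With every column scaled to 1 total the median at 1 week was 0.017 (7 higher and 7 lower). The part of such cells in the values of *Folr2* was not tested.

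Of 16 monocyte markers 14 had a lower fitted value after FT, 2 (12.5%, against 2.59%) at an unadjusted p under 0.05, with a median log2 difference of -0.48. In 5 of the 16 (31.25%, against 8.25%) every FT sample lay below every HS sample. *Plac8* had 6.13 and 6.86 CPM after HS and 0.963, 1.86 and 3.47 CPM after FT (-1.55, 95% interval -2.70 to -0.39). *Fn1*, fibronectin, had 405 and 362 CPM after HS and 167, 287 and 247 CPM after FT, against 13.5, 13.9 and 11.4 CPM in NI (-0.75, 95% interval -1.44 to -0.062). The count of 2 lower markers became 0 (and 1 higher) without FT replicate 1, and 3 without FT replicate 2 or 3. In these fits the lower genes over the whole table numbered 1102, 344 and 275, in place of 435. The median of the markers was -0.29 without HS replicate 1 and -0.75 without HS replicate 2. The summed monocyte level overlapped between the groups, at 1186 and 937 CPM after HS and 528, 1399.6 and 1318 CPM after FT. Markers of 11 neutrophil genes, 17 astrocyte genes, 13 oligodendrocyte genes, 11 endothelial genes and 2 erythroid genes had 0 members at an unadjusted p under 0.05 in either direction. Lower at that threshold were 2 of 12 lymphocyte genes (16.7%, against 2.59%), 1 of 12 neuronal genes (8.33%) and 1 of 16 fibroblast and mural genes (6.25%), *Igfbp6*. The lymphocyte genes were *Cd3g*, with 1.77 and 3.49 CPM after HS and 0.963, 1.01 and 1.26 CPM after FT, and *Gzmb*, with 2.72 and 1.44 and 0.519, 0.851 and 0.631 CPM. The summed levels were 41.3 and 52.0 CPM after HS and 56.5, 40.6 and 56.5 CPM after FT for lymphocyte genes, 449 and 435 CPM after HS and 499.8, 549.9 and 613 CPM after FT for astrocyte genes and 67.3 and 60.6 CPM after HS and 89.9, 50.8 and 43.1 CPM after FT for neutrophil genes. Of these 3 sums that of the astrocyte genes alone was higher in every FT sample, with 5 of its 17 genes above without overlap (29.4%, against 6.79%). Of the 13 oligodendrocyte genes, 11 had a higher fitted value and 4 were above without overlap (30.8%), although their summed level overlapped, at 2104 and 1364 CPM after HS and 1177, 1902 and 2015 CPM after FT. The part of these cells in the results was not tested.

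Genes of disease-associated microglia, the state described in neurodegeneration, were also listed. Of 25 members 19 had a higher fitted value, 5 (20%, against 1.72%) at an unadjusted p under 0.05, and 1 (4%, against 2.59%) lower, with a median log2 difference of 0.29. *Gpnmb*, a glycoprotein of phagocytes, had 144 and 86.0 CPM after HS and 223, 246 and 291 CPM after FT, against 2.80, 2.57 and 3.36 CPM in NI (1.17, 95% interval 0.49 to 1.86). *Lyz2*, lysozyme, had 2228 and 2767 CPM after HS and 3415, 4254 and 7195 CPM after FT (0.92, 95% interval 0.30 to 1.54). Its near copy *Lyz1*, with which it may share reads, had 345 and 452 CPM after HS and 701, 612 and 992 CPM after FT. *Igf1*, insulin-like growth factor 1, had 110.0 and 112 CPM after HS and 139, 208 and 239 CPM after FT, against 8.34, 5.79 and 8.73 CPM in NI (0.78, 95% interval 0.18 to 1.38). The 5 higher members became 6, 7 and 3 without FT replicate 1, 2 or 3. In these fits the higher genes over the whole table numbered 1167, 501 and 221, in place of 289. There were 2 when only the compared groups were fitted (103 over the whole table), and 6 by each count test. The median was 0.32 without HS replicate 1, 0.25 without HS replicate 2 and 0.032 (16 higher and 9 lower) with quantile normalization. *Spp1*, osteopontin, overlapped (2482 and 2836 CPM after HS and 1459, 2036 and 2894 CPM after FT). Of 22 lysosomal genes 21 had a higher fitted value, with a median of 0.28, but 2 reached an unadjusted p under 0.05 (9.09%, against 1.72%), *Lipa* and *Cd68* (0.53, 95% interval 0.015 to 1.05). That count was 11 without FT replicate 1, where the higher genes over the whole table numbered 1167 in place of 289. It was 1 without FT replicate 2 or FT replicate 3, and 0 with median-of-ratios scaling. The median was 0.31 without HS replicate 1 and 0.28 without HS replicate 2.

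The families of the other study genes were examined in the same way. Among 15 selenoprotein genes, 3 (20%, against 1.72%) were higher at an unadjusted p under 0.05, *Gpx3* and a pair of others. *Sepw1*, selenoprotein W, had 76.7 and 71.0 CPM after HS and 136, 109 and 141 CPM after FT (0.79, 95% interval 0.29 to 1.29). *Sepp1*, the selenium carrier selenoprotein P, had 2676 and 2347 CPM after HS and 3115, 4477 and 4747 CPM after FT, against 2233, 1900.2 and 1830.3 CPM in NI (0.69, 95% interval 0.14 to 1.24). The median of the 15 was 0.055, and 6 of the 15 had a lower fitted value. Of 24 glutathione peroxidases and antioxidant enzymes 3 (12.5%, against 1.72%), *Gpx3* among them, were higher and 1 (4.17%, against 2.59%) lower at that threshold, with a median of 0.28. Of 14 genes of folate uptake and one-carbon metabolism, *Folr2* was higher and *Shmt1*, a serine hydroxymethyltransferase, lower (-0.63, 95% interval -1.21 to -0.053), 7.14% each. In the insulin-like growth factor axis, of 13 genes, *Igf1* was higher and *Igfbp6* lower (7.69% each). Of 9 listed genes for small secreted inhibitors, *Wfdc17* was higher and *Wfdc1* lower (11.1% each). *Wfdc1* differed by -1.36, with 0.953 and 2.77 CPM after HS and 0.593, 0.464 and 0.0789 CPM after FT.

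Of 20 interferon-stimulated genes 19 had a higher fitted value with a median of 0.22, and 1 (5%, against 1.72%) had an unadjusted p under 0.05. This was *Cmpk2*, a mitochondrial nucleotide kinase, with 3.54 and 3.85 CPM after HS and 8.30, 9.28 and 8.04 CPM after FT (1.11, 95% interval 0.44 to 1.77). Without FT replicate 1, 8 of the 20 passed that threshold, where the higher genes over the whole table numbered 1167 in place of 289. The split was 11 higher to 9 lower without FT replicate 3 (median 0.060) and 13 to 7 with every column scaled to 1 total (median 0.089). Of 25 proliferation genes 2 (8%, against 1.72%) were higher at an unadjusted p under 0.05, and 15 had a lower fitted value. The 2 were *Ccnb2*, a mitotic cyclin (2.04 and 1.56 CPM after HS and 3.78, 4.95 and 3.55 CPM after FT), and *Aurkb*, a mitotic kinase (0.63). None of 18 DNA damage response genes and none of 12 genes of MHC class II and costimulation had an unadjusted limma p under 0.05. *Cd74*, the invariant chain, had 958 and 905 CPM after HS and 457, 787 and 999 CPM after FT. Of 15 complement genes *C3* alone (6.67%, against 1.72%) was higher at an unadjusted p under 0.05, with 75.6 and 64.6 CPM after HS and 88.8, 113 and 107 CPM after FT (0.55, 95% interval 0.063 to 1.04).

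Of 20 genes of the extracellular matrix and its proteases, 4 (20%, against 2.59%) were lower and 1 (5%, against 1.72%) higher at an unadjusted p under 0.05. *Plaur*, the urokinase receptor, had 116 and 110.2 CPM after HS and 46.5, 59.9 and 78.1 CPM after FT, against 15.3, 22.01 and 19.0 CPM in NI (-0.90, 95% interval -1.496 to -0.31). *Adamts1*, a metalloproteinase, had 185 and 144 CPM after HS and 107, 30.7 and 22.6 CPM after FT (-1.94, 95% interval -3.35 to -0.53). *Timp2*, an inhibitor of metalloproteinases, was the higher member, with 272 and 286 CPM after HS and 548, 347 and 341 CPM after FT. The inflammatory lists that the study drew up on this series were split as well. Of its 12 pro-inflammatory genes 3 (25%, against 1.72%) were higher and 2 (16.7%, against 2.59%) lower at an unadjusted p under 0.05. Of its 9 anti-inflammatory genes 1 was higher, *Igf1*, and 1 lower, *Il1rn* (11.1% each). *Il1rn*, the interleukin 1 receptor antagonist, had 45.1 and 38.4 CPM after HS and 21.4 to 23.7 CPM after FT. None of the members of these lists was called after adjustment by limma.

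**Figure D5:**
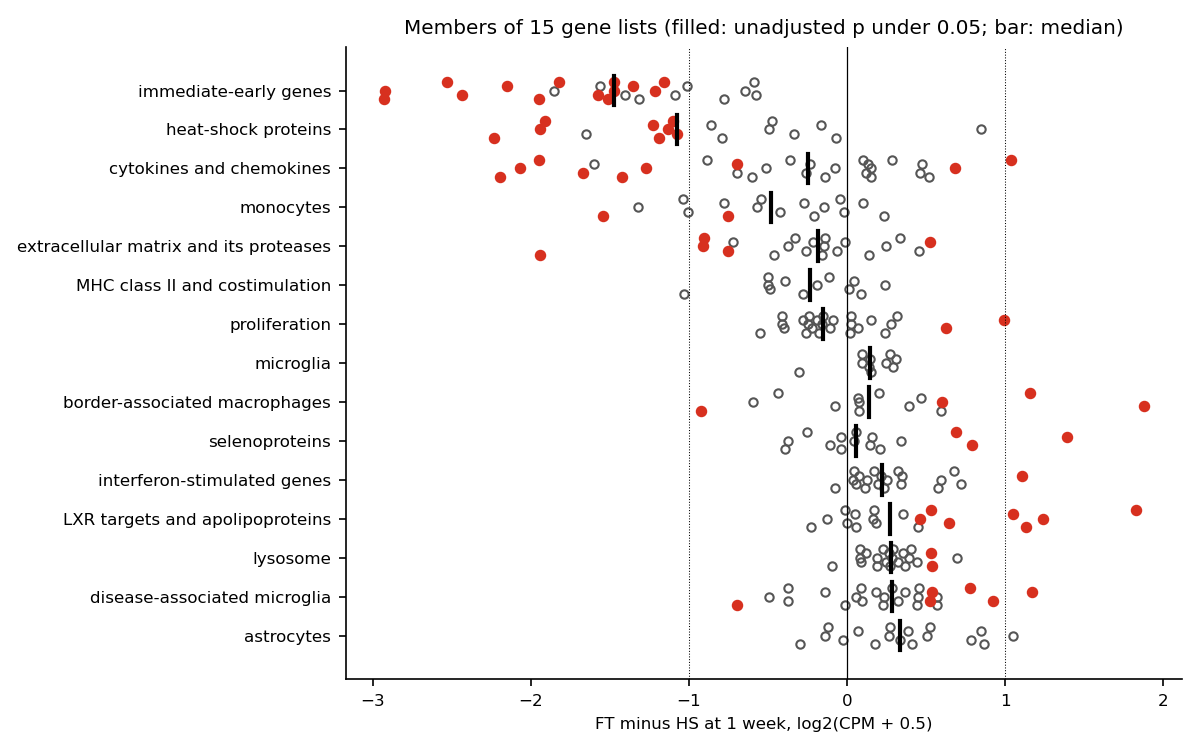
FT minus HS at 1 week for the members of 15 gene lists, as log2(CPM + 0.5), with filled points for an unadjusted limma p under 0.05, a bar at the median of each list and dotted lines at a 2-fold difference. The medians of immediate-early and heat-shock genes, -1.47 and -1.08, lie at or beyond 2-fold, and all other medians lie between -0.48 and 0.34.

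Outside the lists, the genes with the smallest p-values among those without overlap and with at least 1 CPM in either group were as follows. *Hebp1*, a heme-binding protein, had 16.6 and 10.5 CPM after HS and 24.5, 44.0 and 28.8 CPM after FT, against 23.6, 23.6 and 31.1 CPM in NI (1.22, 95% interval 0.62 to 1.82). *Pde2a*, a cyclic nucleotide phosphodiesterase, had 14.7 and 12.1 CPM after HS and 20.9, 32.8 and 23.5 CPM after FT, and 24.1, 20.1 and 22.5 CPM in NI (0.89, 95% interval 0.41 to 1.38). *Ltc4s*, leukotriene C4 synthase, had 187 and 207 CPM after HS and 387, 269.7 and 396 CPM after FT, and 307, 251 and 301 CPM in NI (0.81, 95% interval 0.35 to 1.28). In these 3 genes both HS samples lay below every NI sample and no FT sample did. *Slc26a11*, an anion transporter, had 11.03 and 9.38 CPM after HS and 15.9, 23.4 and 22.7 CPM after FT, a log2 difference of 0.97.

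Among the lower genes of this selection, *Dusp8*, a phosphatase that inactivates stress-activated kinases, had 20.8 and 17.8 CPM after HS and 8.67, 4.10 and 1.97 CPM after FT, against 10.8, 18.0 and 17.4 CPM in NI (-2.07, 95% interval -3.17 to -0.97). Its promoter is shown because it holds TGACGTCA, the cyclic AMP response element, at 2 places, bases -107 to -100 and -63 to -56 from the start at 142095284 (RefSeq, GRCm38, minus strand, chr7:142095285-142095434), in capitals:
Dusp8: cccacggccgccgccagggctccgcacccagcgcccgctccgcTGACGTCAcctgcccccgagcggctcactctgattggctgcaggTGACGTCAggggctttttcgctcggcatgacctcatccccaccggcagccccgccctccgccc
*Esyt3*, an extended synaptotagmin, had 5.58 and 8.54 CPM after HS and 3.85, 1.55 and 1.03 CPM after FT (-1.64, 95% interval -2.44 to -0.83). *AI504432*, a gene with no assigned role, had 18.5 and 16.1 CPM after HS and 11.1, 9.05 and 8.67 CPM after FT, and 7.92, 8.75 and 6.33 CPM in NI, so that FT was nearer to NI than HS was. *Slc25a43*, a mitochondrial carrier, *Serpinb7*, a protease inhibitor, and *Snora75*, a small nucleolar RNA, were all under 4 CPM, with log2 differences of -1.09, -1.32 and -1.33. A difference at such levels depends on the value added before the logarithm.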

How the data were processed

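Polyadenylated RNA of eGFP-high cells was sequenced. The deposited signal values come from the authors' own steps. Per their methods and the submitters' processing notes, reads were mapped with TopHat2 2.0.9 to mm10, counted per gene with HTSeq 0.5.4p3, filtered for low counts and normalized with edgeR 3.3.6. All 336200 values (100%) were whole reads within 0.001 read once divided by the worth of 1 read in their column, so the unit is taken as CPM and reads were recovered for the count tests. The library protocol per the labels (SMARTer, Nextera) does not mark strand, so overlapping genes on opposite strands cannot be told apart.

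The 20 columns were mapped to 7 groups by title. log2(CPM + 0.5) was fitted with limma 3.58.1 (intensity trend, all 20 samples, a mean per group), with Benjamini-Hochberg adjustment over 16810 genes and a limit of 2-fold. Differences are on this scale and understate those of low genes. edgeR 4.0.16 and DESeq2 1.42.0 were run on the reads as alternatives, and the limma and edgeR fits were tested on simulated counts with known changes.

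The lists and members were chosen with earlier results of these data known. Named are the study's 8 genes, the 10 smallest p-values in each direction among genes without overlap and with a mean of at least 1 CPM, up to 3 members per list with the smallest p under 0.05 and its 2 most abundant members, and any gene called by a count test. Others are stated as chosen after their values were seen. Positions are from GENCODE vM21 (133 of 136 symbols matched), promoters from RefSeq (GRCm38). Per list, genes not in the table were left out, and some named genes are not reported here. Alternatives changed the value added (0.1 or 1), the filter (1 CPM in 2 samples), the samples in the fit, the scaling, the fold limit, the replicate number, the test, the depth (thinned in 10 draws) and each sample in turn. Intervals for reads cover counting error only.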

Additional observations from a re-analysis of the deposited data

How the results depend on the processing

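With limma, 0 genes were called between FT and HS at 1 week, and 1 gene, *Gpx3*, with quantile normalization or without FT replicate 1 (0 to 1 over the fits that left out 1 sample). On whole reads edgeR's likelihood ratio test called 8 and DESeq2 7. The number of genes with a 95% interval within 2-fold, 11268, ranged from 6972 to 9950 with 1 sample left out, lowest without HS replicate 2, and the genes at an unadjusted p under 0.05 numbered 2269 without FT replicate 1, against 724. For the difference against 2 weeks the likelihood ratio test and DESeq2 each called 1 gene, *Igfbp6*, and 0 were called with a sample left out by limma. With the replicate number as a replicate block, 0 genes were called and 688 had an unadjusted p under 0.05. Deviations of same-numbered samples correlated at -0.299 and -0.390. With 2 HS samples the deviations of one mirror those of the other, so these values cannot show whether the numbers pair the samples. The main fit took no pairing.

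Of 90 named genes 86 kept their direction under all 18 alternatives. Many had been named for a small p in the same samples, so the count partly reflected that choice. Leaving out the intensity trend, or fitting only the compared groups, changed the spread and not the difference, so no direction could change there. The count is therefore not a test of how stable the directions are. With quantile normalization, *Csf1r* was at -0.038, *P2ry12* at -0.084 and *Tmem119* at -0.068, and with every column scaled to 1 total *Tmem119* was at -0.040. Leaving out a sample gave ranges of -0.00938 to 0.46 for *Csf1r*, -0.00520 to 0.85 for *P2ry12*, -0.065 to 0.24 for *Tmem119* and -0.70 to 1.60 for *Apoe*, the lowest of *Apoe* without HS replicate 2. The cause of these shifts was not tested. With 2 HS samples, depth and sample number limit what low genes can show.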

Other observations

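The genes in this paragraph belong to none of the groups above and were chosen after their values were seen, and none was called by limma after adjustment. *Ifnb1*, which encodes interferon beta, had 14.7 and 18.9 CPM after HS and 10.6, 1.16 and 1.03 CPM after FT (-2.50, 95% interval -4.34 to -0.66). *Ptgs2*, the inducible cyclooxygenase, had 62.6 and 58.9 CPM after HS and 26.5, 15.1 and 13.2 CPM after FT (-1.77, 95% interval -3.11 to -0.43). *Nlrp3*, the inflammasome sensor, had 159 and 124 CPM after HS and 75.8, 39.0 and 36.6 CPM after FT (-1.55, 95% interval -2.46 to -0.64). In these 3 genes FT replicate 1 was the FT sample nearest to HS. *Saa3*, an acute-phase protein of macrophages, had 10.8 and 16.0 CPM after HS and 36.6, 32.1 and 50.4 CPM after FT (1.53, 95% interval 0.36 to 2.71), so that every FT sample was above HS. *Cd209a*, a lectin of monocyte-derived dendritic cells, had 13.9 and 13.4 CPM after HS and 0.815, 4.41 and 5.60 CPM after FT (-2.05, 95% interval -3.69 to -0.41), and here FT replicate 1 was the lowest sample. *Iigp1*, an interferon-induced GTPase, had 7.62 and 8.18 CPM after HS and 7.71, 32.8 and 38.6 CPM after FT (1.39, 95% interval 0.30 to 2.48), with FT replicate 1 at the level of HS. *Zfp619* had the value 274 CPM in HS replicate 1 and 7.94 CPM in HS replicate 2, against 4.97, 8.36 and 8.91 CPM after FT, so its difference (-2.65, 95% interval -5.02 to -0.27) rested on 1 sample.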
